A study of Mus musculus with 102 samples.

Results

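The Gabbr2 locus was taken as the stretch of mouse chromosome 4 from 46670000 to 47010000 (mm9), and its members are the 493 CpGs of this stretch among the 2177608 CpGs of the SureSelect table. Gabbr2 (ENSMUSG00000039809) lies on the minus strand at chr4:46675190-47004745, spans 329556 bases and 19 exons, and is the only annotated gene of the stretch, so that lower coordinates are nearer to its 3′ end. Of the 493 CpGs, 406 were intronic, 31 lay in coding exons, 39 in the 3′ UTR, 12 before the start site and 5 past the gene end. The locus was chosen by the CpG at chr4:46787665-46787666 in intron 7, called the named CpG here, and it was selected on the day 0 methylation levels of its CpGs, which at the named CpG were far higher in cells without TET proteins than in cells with them. The difference between the lines is therefore given as a description, without a test. Calls of later days against TTKO day 0 use a column of this choice, and calls against day 4 leave it out.

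All cells were C57BL6/J mouse embryonic stem cells whose Dnmt3a and Dnmt3b alleles carry loxP sites around the catalytic exons. TTKO cells are a line derived from them in which Tet1, Tet2 and Tet3 were mutated by CRISPR, and WT cells are the parental line with intact TET proteins. The 24 SureSelect samples comprised 3 replicates of TTKO cells before Cre protein was added (day 0), 3 replicates each at days 4, 8, 10, 13, 17 and 29 after Cre transduction, and 3 replicates of WT cells at day 0, all with Dnmt3a and Dnmt3b intact before Cre. The table gives 1 joined column for each of these 8 conditions, so no spread between replicates can be had, and tests of these columns compare joined libraries. In the locus a CpG had 50 to 1183 reads per column, with column medians of 151 to 250.0 reads. The tables hold no expression, so the identity of the cells and the deletions could not be checked here. Line, treatment and day were taken from the labels. The strain, the loxP alleles and the Tet mutations were taken from the authors' description. A TTKO line of another origin was not analysed here, so the loss of TET and other properties of this line cannot be told apart.

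Gabbr2 encodes subunit 2 of the GABA-B receptor, the metabotropic receptor for the inhibitory transmitter GABA. It pairs with GABBR1, couples to inhibitory G proteins and is known mainly from neurons. Methylation of a CpG reflects a balance: DNMT3A and DNMT3B add methyl groups de novo, DNMT1 copies them after replication, TET proteins oxidise them towards removal, and imperfect copying dilutes them. Regulatory elements away from promoters are commonly kept at low methylation, and TET proteins are known to act there.

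The sequences of 3 blocks of intronic CpGs show what was measured. A block is a run of CpGs in which neighbours lie within 500 bases of each other, and the locus had 38 blocks. The first sequence covers 10 of the 13 CpGs of the block with the named CpG, the second 7 of the 9 CpGs of the block with the largest mean TTKO minus WT difference among the 34 blocks of at least 3 CpGs, and the third all 6 CpGs of the nearest block of at least 3 CpGs on the 3′ side of the named one, whose levels differed little between the lines. They are read from NCBIM37 (mm9), plus strand, 5′ to 3′, and capitals mark the measured CpGs.
Intron 7, named block, chr4:46787433-46787732: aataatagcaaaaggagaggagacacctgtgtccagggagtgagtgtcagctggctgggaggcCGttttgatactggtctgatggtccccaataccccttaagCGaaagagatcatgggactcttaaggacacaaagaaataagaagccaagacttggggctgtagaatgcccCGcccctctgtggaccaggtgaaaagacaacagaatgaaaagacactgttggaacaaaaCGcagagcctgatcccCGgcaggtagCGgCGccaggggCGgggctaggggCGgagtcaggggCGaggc
Intron 11, chr4:46744486-46744785: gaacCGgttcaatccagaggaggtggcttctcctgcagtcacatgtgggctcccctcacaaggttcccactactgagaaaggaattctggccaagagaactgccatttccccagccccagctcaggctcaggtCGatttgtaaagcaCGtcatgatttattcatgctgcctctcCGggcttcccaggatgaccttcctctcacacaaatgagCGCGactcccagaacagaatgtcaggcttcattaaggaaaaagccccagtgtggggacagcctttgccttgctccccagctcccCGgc
Intron 7, 3′ side of the named block, chr4:46782947-46783092: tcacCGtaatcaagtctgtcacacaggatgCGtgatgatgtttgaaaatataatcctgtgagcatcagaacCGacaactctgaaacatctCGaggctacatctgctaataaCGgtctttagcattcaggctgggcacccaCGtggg
The named CpG is the fourth capital pair of the first sequence, and it stands at the edge of a CpG-rich tail that ends the block. Counting itself, it had 10 CpGs within 100 bases on either side, against medians, counted alike, of 5 over the locus and 6 over the whole table.

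At the named CpG the TTKO level at day 0 was 92.1% (95% Wilson interval 87.8 to 94.9, 227 reads) and the WT level was 5.7% (3.28 to 9.68, 211 reads), a difference of 86.4 percentage points. After Cre its TTKO level was 91.6% on day 4 (178 reads) and 86.8% on day 8 (129 reads), followed by 83.8% (day 10), 81.4% (day 13), 78.4% (day 17) and 80.6% (day 29, 201 reads). Day 29 was below day 4, a comparison that leaves out the column used in the choice (Fisher's exact test on joined reads, two-sided, adjusted p = 0.00571 over all 2177608 CpGs). The fall was small: 87.5% of the day 0 level was still present at day 29, and none of the 7 TTKO columns came near the WT level.

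The difference at this CpG was the largest of the locus but not of the table. By TTKO minus WT it ranked 16 of 2177608, where the largest difference was 92.8 points, and by the log2 odds ratio of methylation (7.50, with 0.5 added to each count) it ranked 476 in the table and 3 in the locus. It was also set beside the 32967 other CpGs within 2 points of its TTKO day 0 level. Their median WT level was 78.9%, and 7 of them had a WT level below that of the named CpG. Their median share kept at day 29 was 82.9%, and 65% kept less than it did. Its low WT level and its high TTKO day 0 level were both part of the choice. The day 0 level is also the base of the share kept, so nothing is read from this comparison.

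**Figure D1:**
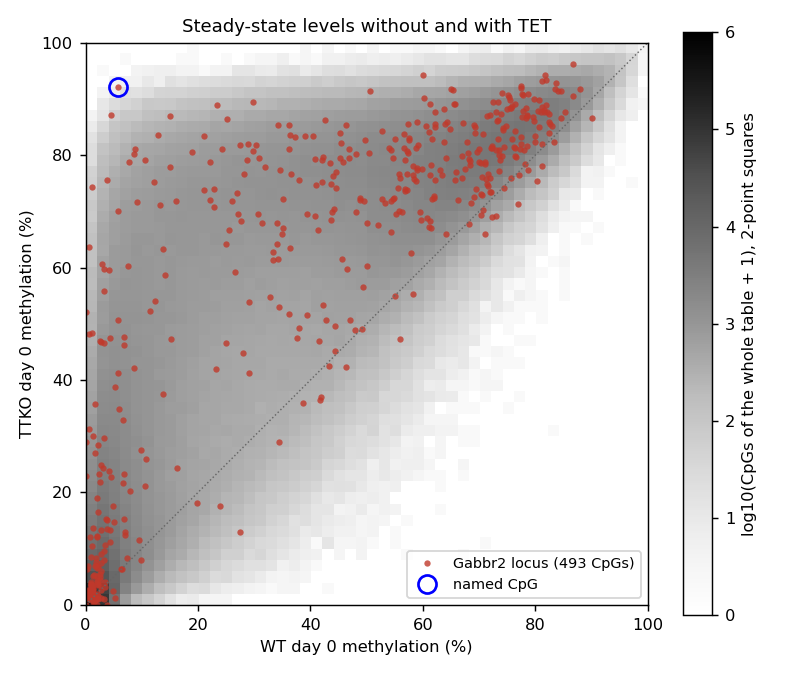
TTKO day 0 methylation (y axis, %) against WT day 0 methylation (x axis, %) for the 493 CpGs of the Gabbr2 locus (red points), over the number of CpGs of the whole table in squares of 2 by 2 points (grey, log10 scale). The dotted line marks equal levels, and the circled named CpG lies at 92.1% against 5.7%.

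The level of the named CpG was shared by its nearest neighbour but not along the whole block. The CpG 16 bases away, towards the start site of the gene, was at 87.2% in TTKO cells at day 0 (187 reads) and 4.5% in WT cells (178 reads), and its difference of 82.7 points was the next largest of the locus. The next one, at 26 bases, was at 83.3% and 21.1%. Beyond it the TTKO level dropped steeply: it was 42.1% at 29 bases, 37.5% at 38 bases, 26.0% at 50 bases and 8.3% at 62 bases, the last CpG of the block. The 2 CpGs on either side of this step lie 3 bases apart, and their Wilson intervals of 76.7 to 88.4 and 34.5 to 50.1 did not overlap. On the 3′ side the CpGs at 59, 129, 169, 236 and 248 bases stood at 66.7, 73.9, 78.7, 52.9 and 76.7% in TTKO cells, and at 25.5, 22.9, 22.1, 34.4 and 36.5% in WT cells. In WT cells the named CpG and its neighbour at 16 bases were therefore lower than the CpGs next to them on either side, and in TTKO cells they were the highest of the block.

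**Figure D2:**
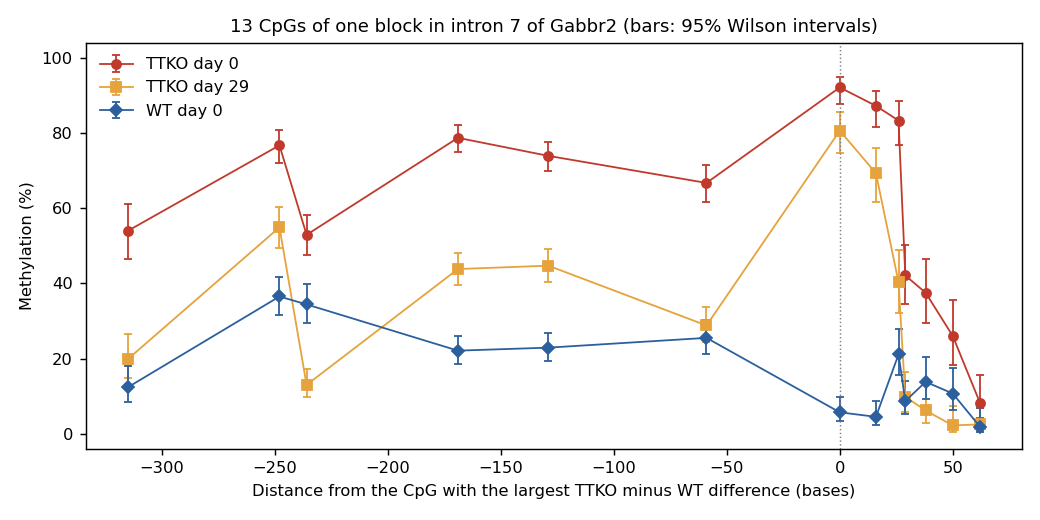
Methylation (y axis, %) of the 13 CpGs of the block in intron 7 against their distance from the named CpG in bases (x axis, positive towards the start site of the gene), for TTKO at days 0 and 29 and for WT. Bars are 95% Wilson intervals from the reads, and the TTKO day 0 level goes from 92.1 to 8.3% within 62 bases.

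The loss after Cre also differed along these few bases. Over the time course the CpG at 16 bases went from 87.2% over 83.9, 78.6, 81.2, 72.1 and 71.9% to 69.3% at day 29, and kept 79.5% of its day 0 level. The CpG at 26 bases went from 83.3% over 77.8, 64.2, 67.4, 55.7 and 52.6% to 40.3%, and kept 48.4%. At 29 and 38 bases 23.3 and 16.5% were kept. The CpG at 59 bases on the other side went from 66.7 to 28.8% and kept 43.2%. All of these were lower at day 29 than at day 4 (Fisher's exact test, adjusted p from 8.42e-20 at 59 bases to 0.00709 at 16 bases), while the CpG at 50 bases (9.2% at day 4, 2.2% at day 29, 93 reads, adjusted p = 0.132) and that at 62 bases (adjusted p = 0.816) did not pass the test. In the block as a whole 11 of 13 CpGs were lower at day 29 than at day 4, as were 57.1% of the CpGs of the table.

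**Figure D3:**
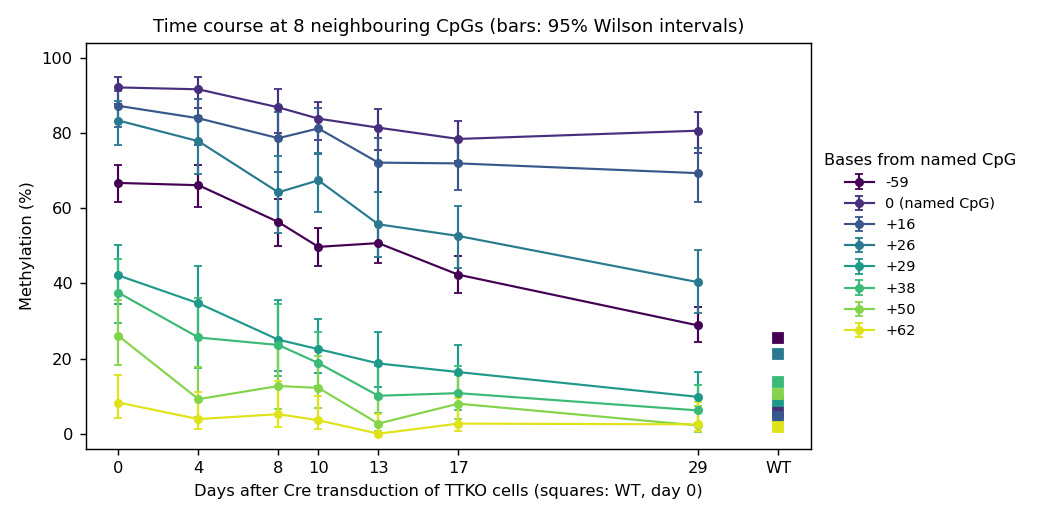
Methylation (y axis, %) of the named CpG and its 7 nearest measured neighbours in TTKO cells against days after Cre transduction (x axis), with the WT level as squares on the right. Bars are 95% Wilson intervals. The named CpG stays between 78.4 and 92.1%, and the CpG at 29 bases goes from 42.1 to 9.8%.

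The rates of the model used for these data put the same courses on a common scale. In it a CpG gains methylation at the rate k_me, which decays after Cre, and loses it at the rate k_de, which the model ascribes to passive loss in TTKO cells. A binomial fit to the 7 TTKO columns gave the named CpG a log2 k_de of -7.11 per day (95% credible interval -7.96 to -6.50) and a log2 k_me of -3.81 (-5.04 to -2.68). The k_me interval is wider than the limit of 2 on the log2 scale that defines a low noise CpG, so only k_de was well determined. Among CpGs with a like day 0 level, low noise or not, the median was -6.84 and 40.6% had a lower value. Fits at the lowest rate allowed are among them, and the day 0 column used in the choice enters the fit. At the CpGs 16, 26, 29 and 38 bases away log2 k_de was -6.43, -4.91, -3.68 and -3.26. The intervals of the CpGs at 16 bases (-7.42 to -5.98) and 26 bases (-5.32 to -4.55) did not overlap.

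Over the whole locus TTKO cells were at a mean of 57.8% at day 0 and WT cells at 39.9%, a mean difference of 17.9 points and a median of 12.3. The table as a whole was lower and less different, at 35.8 and 23.4% with a mean difference of 12.4 points. A difference of at least 50 points was seen at 38 CpGs of the locus (7.71%), against 4.84% of the table. These gaps came with higher starting levels: among CpGs of at least 70% at TTKO day 0, 11.6% of 268 in the locus and 11.8% of 612990 in the table reached 50 points. A TTKO level of at least 70% with a WT level under 10% was found at 9 CpGs of the locus, the named CpG among them (1.83%), and at 0.541% of the table. Among CpGs of at least 70% at TTKO day 0 these were 3.36% in the locus and 1.92% in the table. Of these 9, 2 were in the named block, 5 in a block of intron 9, 1 in intron 8 and 1 in the 3′ UTR. Levels in WT were above those in TTKO at 51 CpGs (10.3%, against 19.8% of the table). The 3 most negative differences, -14.4, -8.6 and -6.3 points, all lay in a block of intron 13 that was partly methylated in both lines.

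**Figure D4:**
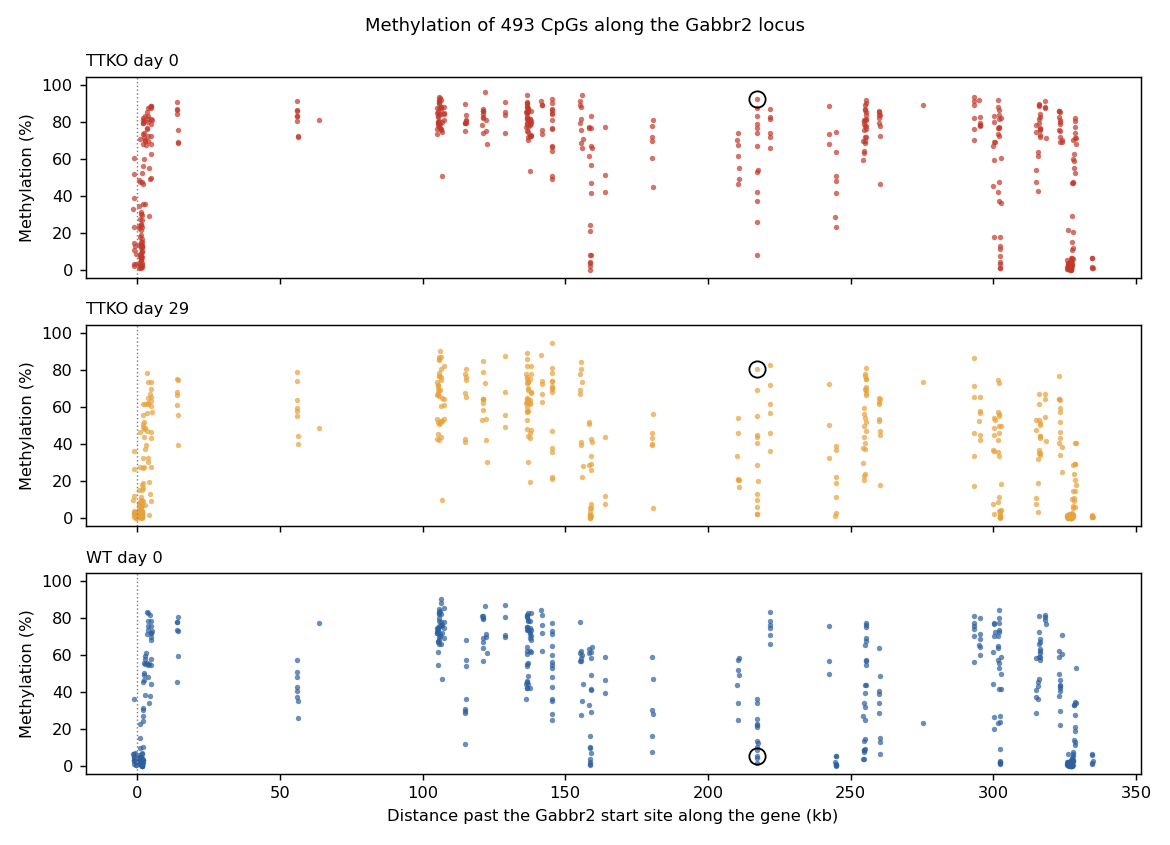
Methylation (y axis, %) of the 493 CpGs against distance past the Gabbr2 start site along the gene (x axis, kb): TTKO on day 0 in the top panel, TTKO on day 29 in the middle and WT at the bottom. The dotted line is the start site and the circle the named CpG, which is at 92.1, 80.6 and 5.7% in the 3 panels. In WT 125 CpGs of the locus were lower than it.

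The largest mean differences of blocks were intronic, while single CpGs with large differences also lay elsewhere. Of the 34 blocks with at least 3 CpGs, 8 had a mean TTKO minus WT difference of at least 35 points and 12 a difference under 10 points. The block of intron 11, 260.0 kb past the start site, had the largest mean, with 77.3% in TTKO and 32.3% in WT over 9 CpGs (45.0 points, single CpGs from 21.7 to 70.6). It was followed by 7 CpGs in intron 8 (47.1 and 2.33%), the named block (60.0 and 16.9%), 8 CpGs in intron 1 at 115 kb (80.9 and 39.7%), 8 CpGs in intron 1 at 56.1 kb (81.7 and 42.2%), 24 CpGs over exon 10 and intron 9 (77.5 and 38.2%), 6 CpGs in intron 4 (67.5 and 31.3%) and 11 CpGs in intron 17 (79.1 and 43.4%). All 8 held intronic CpGs, and 1 of them also covered part of a coding exon. They held 25 of the 38 CpGs with a difference of at least 50 points. Of the other 13, 6 lay in the block at the 3′ end, 5 in the block at the start of intron 1 and 1 before the start site, and 1 stood alone in intron 13. The block of intron 8 was the lowest in WT, where its 7 CpGs stood between 0.0 and 5.8%, while in TTKO cells they reached from 23 to 74.4%.

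Between these blocks lay stretches that were methylated alike in both lines. The third sequence is such a case: its 6 CpGs averaged 77.1% in TTKO and 75% in WT, 2.18 points apart, although it lies in the same intron as the named block. In all, 7 blocks with 61 CpGs averaged at least 70% in TTKO and differed by under 10 points. The smallest mean difference of these 34 blocks, -0.32 points, belonged to 5 CpGs past the gene end with a mean of 3.42% in TTKO and 3.74% in WT.

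**Figure D5:**
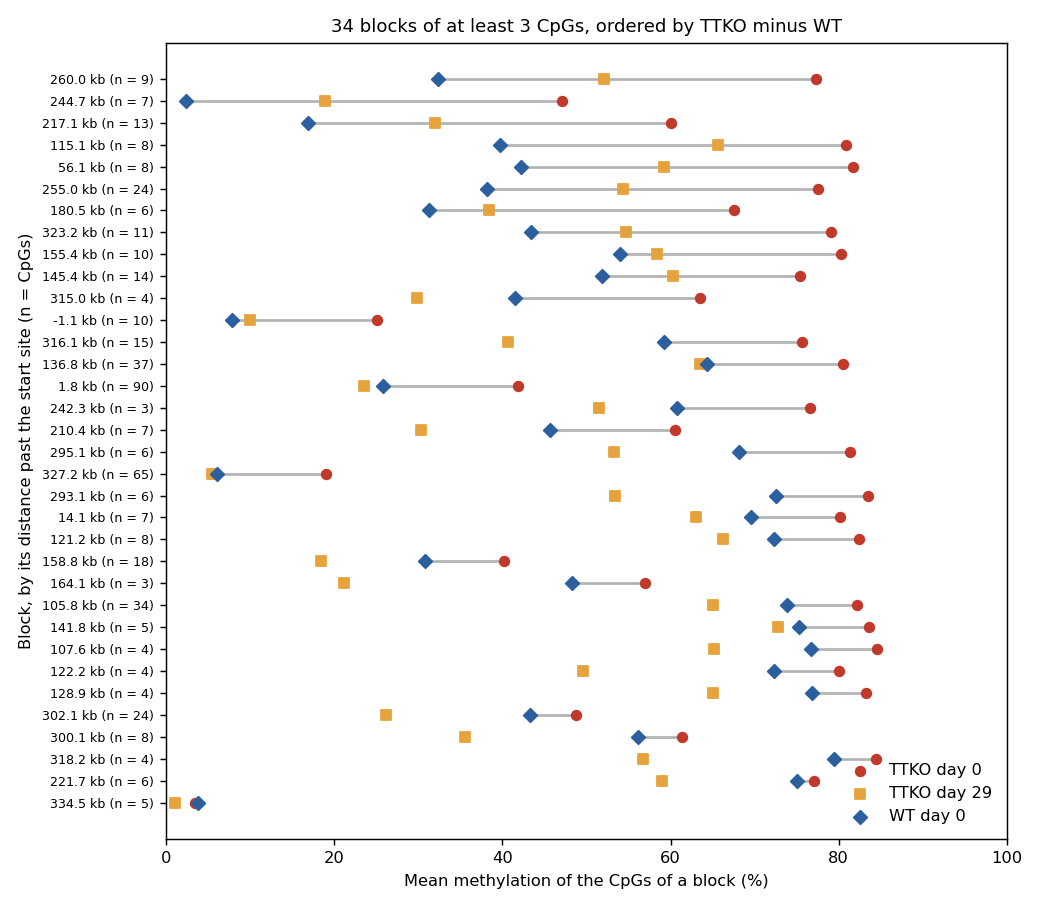
Mean methylation (x axis, %) of the CpGs of each of the 34 blocks with at least 3 CpGs, for TTKO at days 0 and 29 and for WT, with blocks ordered by TTKO minus WT and named by their distance past the start site (y axis). Lines join WT to TTKO day 0, and in the 8 uppermost blocks the day 29 level lies between them.

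The CpGs inside these blocks differed as much as the blocks did. In the intron 11 block, whose first 7 CpGs are those of the second sequence, the TTKO levels in order of coordinate were 72.3, 46.2, 77.9, 83.5, 79.3, 81.9, 85.3, 85.6 and 83.4%, on 145 to 421 reads. The WT levels of the same CpGs were 48.8, 6.9, 15.1, 12.9, 40.8, 28.9, 34.3, 63.9 and 39.1%. The 3 CpGs from the second to the fourth were thus the lowest of the block in WT, at TTKO levels of 46.2, 77.9 and 83.5%. All 9 were low noise, as were 44.7% of the table and 76.4% of its CpGs of at least 70% at day 0. All were lower at day 29 than at day 4, as were 57.1% of the table and 92.4% of its CpGs of 70 to 90% at day 4. They kept 38.3 to 79.4% of the day 0 level. In the intron 8 block the TTKO levels were 41.3, 63.6, 74.4, 50.6, 23, 48.2 and 28.4%, and the WT levels were 5.7, 0.7, 1.2, 5.8, 0.0, 0.7 and 2.2%. The CpG at chr4:46759975-46759976 ranked 3 in the locus by its difference of 73.2 points (164 and 165 reads), with a log2 odds ratio of 7.56, and it went to 39.0% at day 29. The CpG listed at 0.0% in WT had 142 reads, which allow up to 2.63% by its Wilson interval. That block as a whole went from 47.1 to 18.9%, which left 40.2% of the day 0 level, the least of the 8 blocks. In the third printed sequence, by contrast, the TTKO levels of 74.1, 81.4, 87.0, 72.0, 82.3 and 66.0% faced WT levels of 74.5, 76.2, 78.5, 66.2, 83.3 and 71%, and 3 of the 6 CpGs were higher in WT. After Cre 5 of these 6 were lower at day 29 than at day 4, beside the same 57.1% of the table and 92.4% of its CpGs of 70 to 90%. The CpG that started at 87.0%, at 88.3% on day 4 and 82.4% on day 29, did not pass (Fisher's exact test, adjusted p = 0.241).

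By position in the gene, the introns carried most of the methylation. The 405 CpGs that lay in introns and farther than 1 kb from a start site averaged 63.2% in TTKO at day 0, 42.0% at day 29 and 45.0% in WT, against 55.6, 30.7 and 37.4% over such CpGs of the table. The 64 exonic CpGs averaged 38.8, 21.9 and 20.7%, against 46.7, 25.6 and 28.3% in the table, where the exon with the low 3′ UTR of Gabbr2 holds most of the exonic CpGs of the locus. The 11 CpGs within 1 kb of the start site averaged 20.4, 6.74 and 6.56%, against 14.6, 7.63 and 8.59%. The mean TTKO minus WT difference of introns was 18.2 points in both the locus and the table, and that of exons 18.1 and 18.4 points.

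After Cre the mean level of the locus went from 57.8% at day 0 over 56.1, 52.9, 50.4, 47.9 and 43.4% to 37.7% at day 29. The number of CpGs lower than at day 0 was 6 at day 4 (1.22%, against 1.55% of all CpGs tested), 55 at day 8 (11.2%, against 14.4%), 190 at day 10 (38.5%, against 35.7%), 256 at day 13 (51.9%, against 43.6%), 349 at day 17 (70.8%, against 55.7%) and 385 at day 29 (78.1%, against 59.3%), by Fisher's exact test on joined reads with Benjamini-Hochberg adjustment over the table. These comparisons share the day 0 column, which was used in the choice of the locus, so their counts are a description. Against day 4 in its place, 366 CpGs were lower at day 29 (74.2%, against 57.1%). Against day 0 again, a test that allows for over-dispersion between replicates called 1 CpG at day 4, 29 at day 8 and 371 at day 29. In the table it called 0.153, 6.53 and 56.9%. These counts too are a description, as they use the column of the choice. No CpG of the locus was higher at day 29 than at day 0 by Fisher's test (0.171% of the table was), also at an unadjusted p under 0.05, and none was by the over-dispersed test.

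The share of calls against day 4 was also read within classes of the day 4 level, which leaves out the day 0 column. Among CpGs under 20% at day 4, 32.5% of 120 were lower at day 29 in the locus and 19.3% in the table, and among those of 20 to 50% the shares were 93.5% of 46 and 96.7%. All 67 CpGs of 50 to 70% were lower, as were 97.8% in the table. From 70 to 90% the shares were 85.4% of 240 and 92.4%, and from 90% upwards 60% of 20 and 76.4%. The share of the mean day 4 level that was left at day 29 was read in the same classes. It was 73.3% in the locus and 67.1% in the table for CpGs of 70 to 90%, 88.6 and 83.9% from 90% upwards, 47.8 and 43.5% from 50 to 70%, and 34.4 and 28.9% from 20 to 50%. Under 20% the order turned, with 33.7% in the locus and 43.7% in the table. By the day 0 level the share kept is a description. Over all 333 CpGs of at least 50% at day 0 it was 69.2% (counting interval 68.7 to 69.8), against 59.2% in the table. CpGs of 20 to 50% at day 0 kept 23.9 and 25%, the opposite order to that by day 4, and those under 20% kept 28.8 and 41.3%. In introns 73.7% was kept at CpGs of at least 70% in the locus and 65.4% in all introns of the table. Of the 493 CpGs, 260 were low noise (52.7%, against 44.7%). Within classes of the day 0 level the share was mostly below that of the table. It was 65.3% against 76.4% from 70% upwards, and within that class 37.5% of 24 against 37.3% from 90% upwards. From 50 to 70% it was 78.5% against 92%, and from 20 to 50% it was 51.9% against 81.9%. Under 20% it was 5.66% against 5.85%, a class with 106 of the 493 CpGs of the locus and 1056014 of the 2177608 of the table. The median log2 k_de of low noise CpGs was -5.46 in the locus and -4.78 in the table. Among those of at least 70% at day 0 the medians were -5.88 and -5.60. A beta-binomial fit left 97 low noise CpGs in the locus, with a median of -4.91, and was not run over the table.

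Blocks with a large TTKO minus WT difference and blocks without one both lost methylation after Cre. The 8 blocks of at least 35 points went from a mean of 72.6% at day 0 to 48.3% at day 29 (66.5% kept, block values 40.2 to 81.2%), and the 7 methylated blocks of under 10 points went from 82.1 to 63.6% (77.4% kept, block values 62 to 87%). The block values overlapped. In the first set the day 29 level remained above the WT level in 8 of 8 blocks. In the second it was below the WT level in 7 of 7. The WT and the TTKO day 0 levels took part in forming both sets. The TTKO day 0 level is also the base of the share kept, and the sets started at different levels. Across the 268 CpGs of at least 70% at day 0, the TTKO minus WT difference and the share kept at day 29 had a Pearson r of -0.26 and a Spearman rho of -0.25, and the WT level and log2 k_de an r of -0.37 and a rho of -0.43. In the table these were -0.31 and -0.34, and -0.46 and -0.51. CpGs in these correlations share reads, blocks and the day 0 column, and are not independent. Their k_de values include those of CpGs that were not low noise.

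The single CpGs with the most and the least loss lay in different parts of the gene. The least share kept among CpGs of at least 50% was 11.1%, at chr4:46676307-46676308 in the 3′ UTR, which went from 52.2% (291 reads) to 5.8% (293 reads). The next, 15.1 and 19.3%, were also in the 3′ UTR, and the latter went from 77.3% (591 reads) to 14.9% (510 reads), the largest fall of the locus at 62.4 points. The most was kept in intron 2, where 3 CpGs were just above their day 0 level. Among them was chr4:46866796-46866797 with 79.2% at day 0, 79.4% at day 4 and 81.9% at day 29 (day 29 against day 4, Fisher's exact test, adjusted p = 0.734). Among low noise CpGs the lowest log2 k_de, -8.63, belonged to a CpG of intron 1 at 91.8% at day 0 and 87.0% at day 29, with 88.0% in WT. The highest, -2.16, belonged to a CpG past the gene end at 6.3% (969 reads) and 0.6% (892 reads).

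Levels were graded at both ends of the gene. At the 3′ end, 65 CpGs over the last exon and the intron before it averaged 19.0% in TTKO cells without Cre and 6.08% in WT cells, and TTKO day 29 stood at 5.47%. Of these 65, 33 were lower at day 29 than at day 4 (50.8%, against 57.1% of the table). The 8 CpGs nearest the end of the gene were at 72.0%, the next 8 at 46.6%, the next 13 at 15.3% and the 19 after them at 1.86%, and the same bins were at 26.8, 13.1, 1.85 and 1.30% in WT. Around the start site the table holds no CpG for 1000 bases, from 710 bases inside the gene to 290 bases before it, a stretch with 145 CpGs in the reference sequence, so the promoter itself was not analysed here. Of the CpGs next to that gap, 33 between 700 and 1500 bases inside the gene were at 17.6% in TTKO and 3.95% in WT, 27 between 1500 and 2500 bases at 38.4 and 11.8%, and 16 between 2500 and 4000 bases at 73.2 and 62.3%. The first of these bins was at 11.9% at day 4 and 6.65% at day 29. The CpG at chr4:47003012-47003013, the only one of the 6 called at day 4 that the over-dispersed test also called, lay in this stretch. It was at 52.1% at day 0 (236 reads), 28.4% at day 4 (194 reads) and 18.0% at day 29. In WT it was at 0% (232 reads, Wilson interval up to 1.63%). Both calls are against the day 0 column used in the choice, so no p-value is given.

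Short sequence motifs known from factors of stem cells were looked for in the 300 bases around the named CpG, on both strands. The E-box core CANNTG was present, as it was around 74.3% of all CpGs of the table, and its form CACGTG was found 135 bases away towards the start site. CACGTG stood around 7.17% of the CpGs of the table and 54 of the 493 here. The octamer ATGCAAAT (1.28% of the table), the nuclear receptor element AAGGTCA (6.36%) and the STAT site TTCNNNGAA (7.79%) were not in this window.

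As a whole gene Gabbr2 was high but not extreme in its difference between the lines. Over its body and the 1 kb before it, 480 CpGs gave a mean TTKO minus WT difference of 18.1 points, which ranked 2555 among 18095 genes with at least 20 CpGs (median 8.25), and 149 among 940 genes of at least 200 kb (median 12.6). Other genes of GABA-B signalling and of GABA turnover spread widely. Of the 19 genes reported beside Gabbr2, 18 had CpGs in the table and Kctd12b had none. For all of them the calls given are those of day 29 against day 4, which 57.1% of the CpGs of the table passed as lower. That share depends on the level: it was 19.3% under 20% at day 4 and 96.7% from 20 to 50%. The genes differed in level, and apart from Gabbr2 their shares were not set beside CpGs of a like level. Gabbr1, the partner subunit of Gabbr2, was at 5.55% in TTKO and 4.06% in WT over 191 CpGs, of which 36 (18.8%) were lower. Gabbr2 had 360 of 480 (75%), but within classes of the day 4 level the calls of the locus were fewer than those of the table in 3 of 5 classes, as given above.

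Among the channels that GABA-B receptors act on, the inward rectifier gene Kcnj3 differed by 20.0 points over 31 CpGs, of which 45.2% were lower. Kcnj6 differed by 17.8 points over 307 CpGs with 74.6% lower, and Kcnj9 by 9.96 points over 180 CpGs with 48.3% lower. The calcium channel genes Cacna1a and Cacna1b differed by 18.0 and 19.4 points, with 70% of 577 and 55.6% of 126 CpGs lower. Of the G protein genes, Gnao1 differed by 14.1 points (66.7% of 174 CpGs lower), Gnai1 by 13.7 (44% of 50), Gnai2 by 7.05 (41.5% of 130) and Gnai3 by 5.02 (37.5% of 112). The auxiliary subunit genes Kctd8 and Kctd12 differed by 3.75 and 8.65 points, with 12.3% of 122 and 30.1% of 103 CpGs lower. Kcnj5 and Kctd16 had 13 and 19 CpGs, of which 13 and 18 were lower, and differed by 22.9 and 17.4 points. The largest difference among the reported genes with at least 20 CpGs was at Slc32a1, the vesicular GABA transporter, with 45.0% in TTKO and 13.6% in WT (31.4 points) over 265 CpGs, of which 77.7% were lower. Abat, which breaks GABA down, differed by 19.4 points with 72.2% of 151 CpGs lower. Gad1 and Gad2, which make GABA, differed by 10.2 and 7.95 points, with 37.6% of 295 and 36.8% of 174 lower.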

How the data were processed

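Gabbr2 and its neighbouring lists were chosen with earlier results of these data known. The authors captured DNA with SureSelect Mouse Methyl-Seq, sequenced bisulfite-converted reads, aligned them to mm9 with Rbowtie in QuasR and called CpGs with qMeth. They deposited methylation levels as a percent and coverage as counts of reads per CpG, without normalization, with 1 column per condition in which replicates are joined. Every deposited CpG had at least 50 reads in each column. In the locus the coverage was 50 to 1183 reads (median 216). The deposited columns of inferred rates, confidence and TET activity hold the authors' inferences and were not used. The table of 88 amplified regions had no region in the locus, and the amplicon levels were not used.

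Methylated reads were level times coverage, rounded. Columns were compared per CpG by the two-sided Fisher's exact test, with p-values adjusted after Benjamini and Hochberg over 2177608 CpGs and a threshold of 0.05, in place of the model planned for values per replicate. Intervals are 95% Wilson intervals. Reads are PCR products without molecular identifiers, so intervals cover counting error only. The over-dispersed alternative used 0.0055 between 3 equal replicates. The beta-binomial fit used the same value on the joined reads as 1 library. The authors set this value on amplicon data, and for SureSelect they found a binomial error model to be enough. Rates were fitted on 80 by 80 values up to 2 per day, spaced by a factor of 1.1, with k_E = 0.5 per day, 8% of undeleted alleles and a conversion error of 0.0025. The prior was uniform. CpGs with a posterior of at least 0.08 at a border of the grid were left out of the low noise CpGs. The k_de values of CpGs with a like day 0 level, and the correlations with k_de, used all fitted CpGs. Scripts were tested on simulated data. CpGs were placed on NCBIM37 and GENCODE M1 (python 3.11.15, numpy 2.4.6, scipy 1.17.1, numba 0.67.0).

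The CpGs named are the CpG of the rule with 5 on each side, the 3 largest and 3 smallest TTKO minus WT differences, the 3 most and 3 least kept among CpGs of at least 50% at day 0, the low noise CpGs with extreme k_de, the blocks with extreme differences, the start site and the GABA-B list. That list held a further gene, beside those given in the text, that is not reported here. Calls per gene are given against day 4 in place of the planned day 0, a choice made after the data were seen. Other CpGs and blocks in the text, and the block limits of 35 and 10 points, were chosen after their values were seen. Alternatives were coverage minimums, the over-dispersed test, a day 4 baseline, other weights and other model settings.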

Additional observations from a re-analysis of the deposited data

How the results depend on the processing

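No paired analysis was possible because the columns join the replicates of each condition, and for the same reason no replicate could be left out. Of 47 alternative values, 36 stayed within a set margin, and none changed direction. The margin was 1.5 times for a count and the counting interval for a mean level or a share. For the median log2 k_de it was a single step of the fitted rates. For the rates of the named CpG it was their credible interval, which is wide. With at least 150 reads in every column 246 CpGs of the locus remained. Of these, 211 were lower at day 29 than at day 0 (85.8%, against 70.8% of all CpGs so covered). Their mean TTKO minus WT was 18.3 points, and 67.7% was kept at those of at least 50% at day 0. With at least 100 reads 68.6% was kept, and with a start of at least 70%, 73.4%. Weighting by reads gave a mean difference of 16.5 points and the mean over blocks 18.5. Against day 0 the over-dispersed test called 1 CpG at day 4, at chr4:47003012-47003013, and 29 at day 8. A beta-binomial fit left 97 low noise CpGs, with a median log2 k_de of -4.91. The causes of these shifts were not tested, apart from the smaller number of CpGs under a coverage minimum. The early calls and the counts of low noise CpGs thus depend on how the variation between replicates is set, which the joined columns cannot show. The beta-binomial fit treated the joined reads as 1 library, and so assumed more variation than the over-dispersed test. At the lowest coverage of 50 reads small differences were not detectable.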
